A study of Mus musculus with 2 samples.

Results

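Macrophage-like cells from the mouse cochlea were described through 8 genes commonly used to recognise long-lived tissue macrophages, out of 48709 genes in the deposited tables. These are Mrc1, Cd163, Folr2, Lyve1, Cbr2, Maf, Sepp1 and Vsig4. Whether the cells that held them were resident in the tissue was not tested. The genes were chosen by name, and each had 1 row in the tables. Sepp1 is the tables' name for selenoprotein P, called Selenop in current annotation. There was 1 single-cell library of implanted cochleae and 1 of non-implanted cochleae, both from mice of the strain C57BL/6J/B6 with the genotype CX3CR1+/GFP Thy1+/YFP, males and females pooled. Cells carrying the surface protein CD11b had been selected, and the series text places collection at day 33 after a cochlear electrode was placed. The labels give the implanted group as carrying an electrode, without saying whether it released a drug, and they give neither the number of animals pooled nor whether the non-implanted cochleae were the opposite ears. The dissection protocol in the labels names ages and a part of the inner ear that do not match the series text, so no age was taken from it. One copy of Cx3cr1 is replaced by a reporter in both groups, so every value comes from mice with that allele. With 1 library per group no test could be made, no p-value is given, and each interval is a 95% interval that covers counting error only.

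Tissue macrophages that settle early in life and renew locally differ from monocytes newly arrived from blood by a set of scavenging receptors, a characteristic group of transcription factors and secreted carriers. The cochlea holds such macrophages in the lateral wall, the spiral ganglion and around vessels, and monocytes can enter it after injury. Mrc1 encodes the mannose receptor and Cd163 the scavenger receptor for haemoglobin bound to haptoglobin. Folr2 encodes a folate receptor, Lyve1 a receptor for hyaluronan and Vsig4 a complement receptor of the immunoglobulin superfamily. Maf is a transcription factor of mature macrophages, Sepp1 a secreted selenium carrier and Cbr2 a carbonyl reductase.

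On GRCm38 (GENCODE M21) the members lie on 7 chromosomes. The receptor genes are Mrc1 (chr2:14229392-14332057, plus strand), Cd163 (chr6:124304656-124330527, plus), Folr2 (chr7:101839988-101857194, minus), Lyve1 (chr7:110850607-110863239, minus) and Vsig4 (chrX:96247203-96293438, minus). The others are Cbr2 (chr11:120729489-120732114, minus), Maf (chr8:115682942-115707794, minus) and Sepp1 (chr15:3268547-3280508, plus). Genes on the opposite strand overlap Folr2, Maf and Sepp1, and they held 7, 10 and 3 UMIs (unique molecular identifiers, 1 for each captured transcript) in all cells. RefSeq promoter sequences (GRCm38.p6) were matched for 6 of the 8 members. Those of 4 members that were all at least 1.5-fold lower in implanted macrophage-like cells are shown, in lower case, cut where the GENCODE gene begins. Mrc1 is chr2:14229164-14229391, plus strand, Cd163 chr6:124304401-124304650, plus strand, Folr2 chr7:101857195-101857440, minus strand, and Cbr2 chr11:120732115-120732271, minus strand. Capitals mark a Maf recognition core.
Mrc1: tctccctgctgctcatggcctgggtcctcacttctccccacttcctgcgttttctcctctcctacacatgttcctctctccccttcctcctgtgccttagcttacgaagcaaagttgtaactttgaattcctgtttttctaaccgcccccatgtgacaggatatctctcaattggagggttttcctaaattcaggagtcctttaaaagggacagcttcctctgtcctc
Cd163: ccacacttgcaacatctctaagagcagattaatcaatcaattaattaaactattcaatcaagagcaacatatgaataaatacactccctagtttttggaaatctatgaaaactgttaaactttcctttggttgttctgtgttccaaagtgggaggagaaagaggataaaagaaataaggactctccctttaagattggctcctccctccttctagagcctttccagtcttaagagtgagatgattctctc
Folr2: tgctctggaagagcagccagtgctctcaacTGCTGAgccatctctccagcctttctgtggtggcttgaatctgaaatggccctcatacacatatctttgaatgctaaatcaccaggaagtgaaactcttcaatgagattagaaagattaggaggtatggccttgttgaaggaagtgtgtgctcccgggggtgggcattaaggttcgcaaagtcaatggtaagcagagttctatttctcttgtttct
Cbr2: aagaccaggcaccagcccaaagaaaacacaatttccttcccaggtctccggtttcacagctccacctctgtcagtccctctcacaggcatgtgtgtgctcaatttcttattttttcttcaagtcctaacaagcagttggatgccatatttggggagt
The motifs named here were searched on both strands in the 250 bases before each RefSeq start, with no match overlapping another: the Maf core TGCTGA, the PU.1 core GAGGAAGT and the AP-1 site TGAGTCA. The Maf core was found in Folr2, 220 bases before its start, and in no other matched member, while 16.1% of 32851 promoters of that length held it. The PU.1 core was found in Sepp1 on the reverse strand, 181 bases before the start used, against 2.44% of all promoters. That start, 1 of 3 for Sepp1, lies 2220 bases from the GENCODE start, so the window (chr15:3270517-3270766) is inside the gene. No matched member held the AP-1 site, which 4.46% held. These matches are descriptions of the letters in these windows.

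The rule kept barcodes with at least 200 detected genes and at most 10% mitochondrial UMIs, which were 3149 of 3231 in the implanted and 3513 of 3572 in the non-implanted library. After removal of 84 and 102 probable doublets, 3065 and 3411 cells with 18469428 and 20433645 UMIs were grouped into 25 clusters, with the 8 members left out of the clustering. The libraries shared 6 barcodes, none of them in a macrophage-like cell. Ptprc, a gene of all leukocytes, had a UMI in 90.0% of implanted and 93.1% of non-implanted cells. Itgam, which encodes CD11b, was detected in 3.98% and 4.69%, over 2 rows of the table. Clusters named as granulocyte precursor-like, erythroid-like, B cell-like and osteoclast-like were among the 25. The origin of the macrophage-like cells was not tested.

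Macrophage-like cells, named by transcripts of complement C1q, Csf1r, Adgre1 and other markers that exclude the members, numbered 224 in the implanted library (7.31% of cells, 6.41 to 8.29) and 163 in the non-implanted library (4.78%, 4.09 to 5.55). All 10 macrophage markers were present in both libraries. The class was made of 4 clusters of different make-up in the libraries. Cluster 11, led by Itga9, Mrc1, Ccl12, Mertk, Stab1 and C1qa, held 77 implanted and 98 non-implanted cells. Cluster 14, led by Retnla and the C1q genes, held 70 and 54 cells of low depth, with a median of 763 and 821.5 UMIs. Cluster 19, led by Mmp12, Mfge8, Gpnmb and Spp1, held 64 implanted cells and 2 non-implanted cells, so that cluster and the implanted library cannot be told apart. Cluster 25, with the microglia-associated genes Tmem119 and Gpr34 among its leading genes, held 13 and 9.

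Other cell types' RNA was also present in the class. The 9 neutrophil markers, none at 0, summed to 33957 CPM (UMIs of the listed genes per 1e6 UMIs) in implanted and 63042 CPM in non-implanted macrophage-like cells. The 7 abundant neutrophil transcripts of a further list (among them S100a8, Ngp and Camp) took 4.34% and 8.49% of the UMIs, and 26 and 25 cells had more than 5% of their UMIs in them. In the order implanted and non-implanted, the summed markers stood at 10039 and 22029 CPM for granulocyte precursors, 3161 and 3476 for monocytes, 868 and 228 for osteoclasts and 696 and 567 for megakaryocytes. They stood at 94.99 and 209 CPM for dendritic cells, 136 and 234 for erythroid cells and 91.7 and 184 for B cells. Of the fibroblast markers Col3a1 and Lum were at 0 in both libraries, as were the T cell genes Cd3e, Cd3g and Trbc2. The part of other cells' RNA in the member levels was not tested, and values without the cells above 5% neutrophil RNA are given below. A summed level does not tell fewer cells with a transcript from less of it in each cell, so the number of cells with a UMI is given beside it.

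Mrc1, Maf, Sepp1, Folr2 and Cbr2 each had their highest level in cluster 11 or cluster 14 in both libraries, and Cd163, Lyve1 and Vsig4 rested on few UMIs. Mrc1 was at 650 CPM (588 to 716) in implanted and 748 CPM (688 to 812) in non-implanted cells of cluster 11, the highest of 21 clusters with at least 20 cells in each library. In the non-implanted library cluster 14 came next with 614 CPM (438 to 835), and the intervals of clusters 11 and 14 overlapped. In the implanted library cluster 14 had 242 CPM (144 to 383), below cluster 11, and its interval overlapped that of the dendritic cell-like cluster 16 (297 CPM, 238 to 367). Clusters 11, 14 and 16 thus stood above the other clusters of this size for the mannose receptor, and the next in order, unnamed cluster 21, had 42.3 and 112 CPM.

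Maf was at 417 CPM (367 to 470) in implanted and 428 CPM (383 to 477) in non-implanted cells of cluster 11. In cluster 14 Maf stood at 391 CPM (262 to 561) and 414 CPM (273 to 603), within the intervals of cluster 11. Cluster 25 had 192 CPM in the implanted library and 232 CPM in the non-implanted library. This transcription factor thus extended to cluster 25, whereas Mrc1 had 1 UMI in its 13 implanted cells and 0 in its 9 non-implanted cells. Tmem119 was at 394 and 669 CPM in cluster 25 (41 and 52 UMIs). It was not confined to that cluster, since cluster 11 had 78.8 and 56.3 CPM (49 and 43 UMIs). Sepp1 was at 1307 CPM (1219 to 1400) and 1160 CPM (1085 to 1239) in cluster 11. Its level was higher in cluster 14, at 1859 CPM (1562 to 2196) and 2239 CPM (1891 to 2633). Cluster 25 had 693 and 836 CPM of Sepp1, and this selenium carrier was the most widely found member outside macrophages.

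The other 5 members were rare. Cbr2 was at 43.4 CPM (28.6 to 63.2) and 56.3 CPM (40.8 to 75.8) in cluster 11. In cluster 14, where it was 1 of the 10 leading genes, it was at 148 CPM (74.0 to 265) and 199 CPM (106 to 341), from 11 and 13 UMIs. Folr2 was at 32.2 CPM (19.6 to 49.7) and 55.0 CPM (39.6 to 74.3) in cluster 11, and its cluster 14 values of 26.9 and 76.7 CPM came from 2 and 5 UMIs. In the dendritic cell-like and monocyte-like clusters the reductase had at most 9 UMIs in a class and library, and the folate receptor at most 2. Cd163 rested on 8 and 20 UMIs in cluster 11 (12.9 and 26.2 CPM) and on 3 and 4 UMIs in cluster 14. Lyve1 had 4 and 39 UMIs in cluster 11 (6.43 and 51.1 CPM), and Vsig4 had 0 and 2 UMIs in the whole macrophage-like class.

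**Figure D1:**
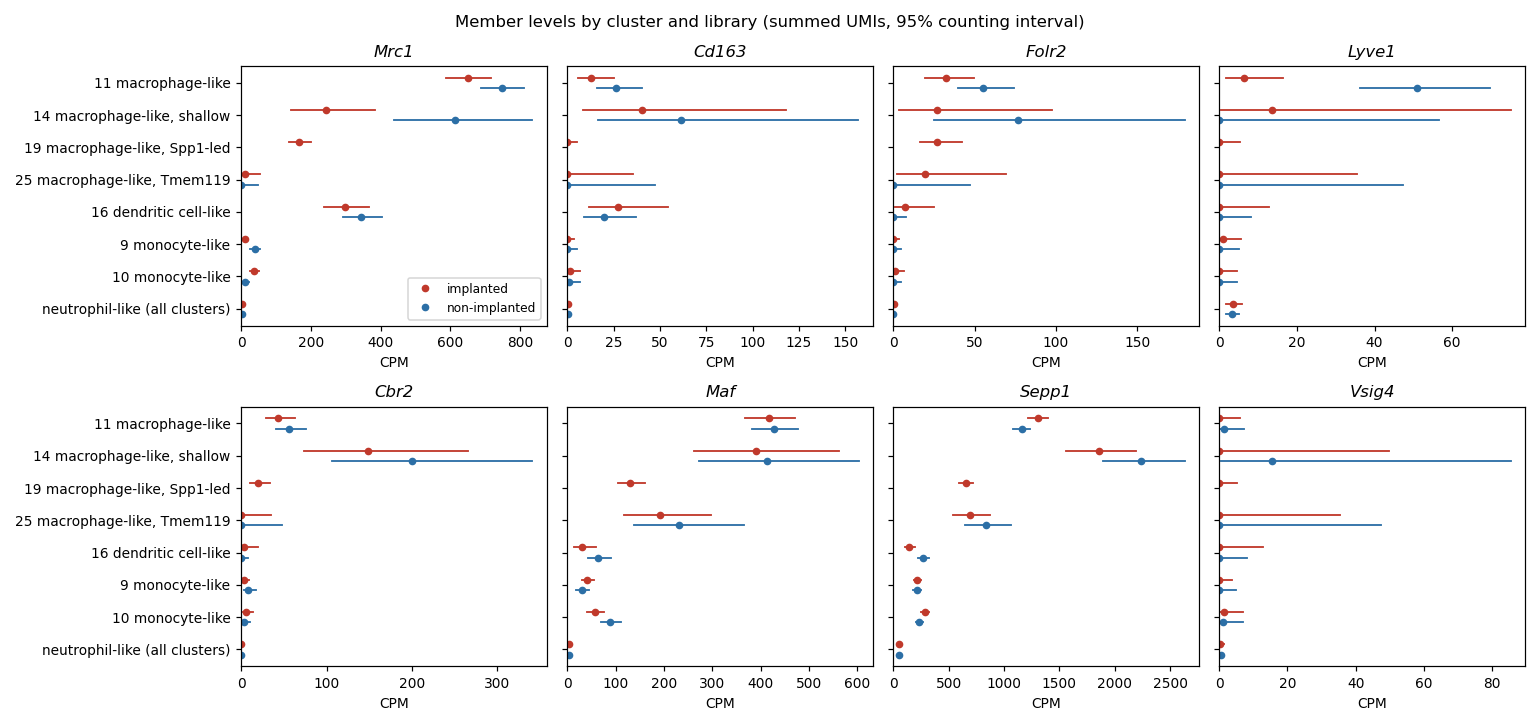
Level of each member in CPM (horizontal axis, a separate scale for each gene) in the 4 macrophage-like clusters, the dendritic cell-like and monocyte-like clusters and all neutrophil-like cells; points are summed UMIs of 1 library (red, implanted; blue, non-implanted) and lines are 95% counting intervals. Cluster 19 is shown for the implanted library alone, since it held 2 non-implanted cells; Mrc1 is highest in cluster 11 and Sepp1 in cluster 14 in both libraries.

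The Spp1-led cluster 19 had less of the 3 abundant members than cluster 11 of the same library. In its 64 implanted cells, with 705356 UMIs, Mrc1 was at 167 CPM (138 to 200), with a UMI in 23 cells. Maf was at 130 CPM (105 to 160), with a UMI in 36 cells, and Sepp1 at 654 CPM (595 to 716), with a UMI in 40 cells. These cells were led by Mmp12, a matrix metalloprotease gene, and Spp1, the gene of osteopontin, and the 3 intervals lay below those of cluster 11. Folr2 was at 26.9 CPM (16.2 to 42.1) in 10 cells and Cbr2 at 19.8 CPM (10.9 to 33.3) in 8 cells, with intervals that overlapped those of cluster 11. Cd163, Lyve1 and Vsig4 had 0 UMIs in cluster 19, which allows up to 5.23 CPM each.

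Outside the macrophage-like class, Mrc1 was also found in dendritic cell-like cluster 16, which was led by Cd209a and class II genes. Its level there was 297 CPM in 37 implanted cells and 345 CPM (293 to 403) in 60 non-implanted cells, a ratio of 0.862 (0.655 to 1.13). Cd163 was at 27.6 CPM (8 UMIs in 4 cells) and 19.6 CPM (9 UMIs in 5 cells), and 8 of those 9 cells also held Mrc1. Cells of this cluster differed from the macrophage-like cells in the other members: of 61 cells with Mrc1, 14 held Maf, 41 held Sepp1 and 0 held Folr2. Cbr2 had 1 UMI in cluster 16 and Lyve1 and Vsig4 had 0.

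The 273 implanted and 230 non-implanted monocyte-like cells had Mrc1 at 21.4 CPM (15.2 to 29.3) and 24.5 CPM (17.4 to 33.7). Maf in these cells was at 48.3 CPM (38.7 to 59.5) and 60.7 CPM (49.0 to 74.2). Sepp1 was at 246 CPM (224 to 270) and 223 CPM (200 to 247), with a UMI in 70.7% and 70.0% of the cells at a median of 6673 and 6631.5 UMIs, beside 74.6% and 80.4% of macrophage-like cells at 4453 and 4381 UMIs. Selenoprotein P was thus found in most monocyte-like cells as well. Folr2, Cd163 and Lyve1 had at most 1 UMI in the monocyte-like cells of either library.

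In neutrophil-like cells, which should hold none of these receptors, Mrc1 was detected in 0.472% of 1270 implanted and 0.439% of 1594 non-implanted cells, against 44.2% and 62.0% of macrophage-like cells. The median depths were 2753.5 and 2763.5 UMIs in the neutrophil-like and 4453 and 4381 UMIs in the macrophage-like cells. Maf was detected in 1.02% and 1.13% of the neutrophil-like cells and Sepp1 in 13.1% and 12.4%. These shares stand for the background of free RNA and of low expression together. Lyve1 did not follow that order: it had 26 and 43 UMIs in granulocyte precursor-like cells, in 24 of 1022 and 40 of 1166 cells, more UMIs than in the macrophage-like cells of the same library. Its level there was 2.90 and 3.98 CPM, beside 6.43 and 51.1 CPM in cluster 11, and no precursor-like cell held more than 2 UMIs. In the implanted library neutrophil-like clusters 7 and 3 had Lyve1 at 9.27 and 6.35 CPM, with intervals that overlapped that of cluster 11. Vsig4 likewise had 13 and 8 single UMIs in granulocyte precursor-like cells, of 29 in all cells.

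The comparison of implanted with non-implanted cochleae asked how the member genes stood in macrophage-like cells after an electrode had been in place. Among 9132 genes with at least 20 UMIs, 10.5% were at least 1.5-fold lower and 11.3% at least 1.5-fold higher in the implanted library, with ratios taken after adding 5 CPM. Of the 7 members that reached 20 UMIs, 6 were at least 1.5-fold lower, 0 were higher, and Sepp1 lay within the limit. The median log2 ratio of the 7 was -0.75, beside -0.01 over all genes. Clusters 11, 14 and 19 made up most of the implanted class and clusters 11 and 14 most of the non-implanted class.

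Among the receptors, Mrc1 had 541 UMIs (359 CPM, 330 to 391) in implanted and 613 UMIs (671 CPM, 619 to 726) in non-implanted cells, a ratio of 0.536 (0.476 to 0.602). The intervals of the mannose receptor did not overlap, and no cell held more than 8.32% of its UMIs in either library. Folr2 had 43 and 47 UMIs (28.6 and 51.4 CPM), a ratio of 0.555 (0.359 to 0.858), in 21 implanted and 14 non-implanted cells. Cd163 had 11 and 24 UMIs (7.31 and 26.3 CPM), a ratio of 0.278 (0.123 to 0.590). It was found in 8 cells of each library, and 14 of the 24 non-implanted UMIs came from 1 cell, without which the ratio was 0.658 (0.254 to 1.73) and within the limit. Lyve1 had 5 and 39 UMIs (3.32 and 42.7 CPM), a ratio of 0.0778 (0.0239 to 0.198), in 3 and 7 cells. Of the 39 UMIs of the hyaluronan receptor, 23 lay in 1 cell, without which the ratio was 0.187 (0.0535 to 0.534), so the intervals of Cd163 and Lyve1, which take UMIs as independent, are too narrow.

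Of the other members, Maf had 400 and 380 UMIs (266 CPM, 240 to 293, and 416 CPM, 375 to 460), a ratio of 0.639 (0.554 to 0.737). Cbr2 had 52 and 56 UMIs (34.5 and 61.3 CPM), a ratio of 0.564 (0.379 to 0.837). The secreted carrier was nearest to equal: Sepp1 had 1484 and 1098 UMIs (986 CPM, 936 to 1037, and 1201 CPM, 1131 to 1275), a ratio of 0.821 (0.758 to 0.888). Summed over the 8 members, implanted macrophage-like cells had 1685 CPM and non-implanted cells 2472 CPM, a ratio of 0.682 (0.644 to 0.722). Without the 26 and 25 cells above 5% neutrophil RNA the same number of members, 6, was at least 1.5-fold lower and the ratio of the sums was 0.651. The count was 3 with no doublets removed, 2 where each cell had equal weight, as the mean of per-cell CPM, and 3, Mrc1, Lyve1 and Maf, where the single cell richest in each gene was left out. It was 5 where the richest cell of each library was left out. The number of members past the limit thus depended on how cells were selected and weighted. The share of all genes past the limit was not counted for these alternatives.

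The difference of the sums was smaller without cluster 19 and in cluster 11. Without cluster 19, 3 of the 7 members were at least 1.5-fold lower, with a background of 7.49% lower among 8212 genes, and the ratio of the sums was 0.923. Mrc1 then had a ratio of 0.785 (0.691 to 0.890), Maf 0.938 (0.804 to 1.09) and Sepp1 1.06 (0.970 to 1.15). The 3 lower members were receptors: Cd163 at 0.519 (0.230 to 1.10), Folr2 at 0.579 (0.338 to 0.966) and Lyve1 at 0.145 (0.0447 to 0.369). The Cd163 interval holds 1, and without its richest cell the ratio was 1.23 (0.473 to 3.22). For Folr2 it was then 0.787 (0.447 to 1.37) and for Lyve1 0.349 (0.0999 to 0.996), so of the 3 only Lyve1 stayed past the limit. Where the richest cell of each library was left out instead, 2 of the 7 members were at least 1.5-fold lower. Cbr2 had a ratio of 0.769 (0.496 to 1.18).

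Within cluster 11 alone the same 3 receptors passed the limit, against 7.92% of 7565 genes. Mrc1 had a ratio of 0.869 (0.763 to 0.989), with a UMI in 62 of 77 implanted and 82 of 98 non-implanted cells. Maf had a ratio of 0.973 (0.823 to 1.15) and Cbr2 of 0.771 (0.458 to 1.28). Sepp1 stood higher in the implanted cells, with a ratio of 1.13 (1.02 to 1.24). The receptors that passed were again the rare ones, Folr2 at 0.585 (0.325 to 1.02), Cd163 at 0.491 (0.187 to 1.16) and Lyve1 at 0.126 (0.0327 to 0.349). The intervals of Folr2 and Cd163 hold 1, and 14 of the 20 non-implanted Cd163 UMIs lay in 1 cell. Without the richest cell of both libraries together, Cd163 was at 1.61 (0.489 to 5.62), Folr2 at 0.831 (0.446 to 1.52) and Lyve1 at 0.301 (0.0733 to 0.934), so Lyve1 alone passed. With the richest cell of each library left out, 2 of 7 members passed. For Sepp1 the richest cell was implanted, with 68 of 813 UMIs, and the ratio without it was 1.05 (0.9498 to 1.16). The 8 members summed to 2469 CPM in implanted and 2526 CPM in non-implanted cells of cluster 11, a ratio of 0.977 (0.913 to 1.05).

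In the shallow cluster 14, 4 members reached 20 UMIs, and 1 of them was at least 1.5-fold lower, beside 16.4% of 1077 genes. That member was Mrc1, with 18 and 40 UMIs and a ratio of 0.395 (0.213 to 0.705). Sepp1 had a ratio of 0.830 (0.653 to 1.05) there, with 138 and 146 UMIs, while Maf had 29 and 27 UMIs and Cbr2 11 and 13, in 7 and 6 cells. Without the richest cell of both libraries together, 1 of the 4 members was at least 1.5-fold lower and 1 at least 1.5-fold higher in the implanted library. With the richest cell of each library left out, 1 was lower and 0 were higher. The share of all genes past the limit was not counted for these settings. The sum over the 8 members had a ratio of 0.752 (0.620 to 0.911) in this cluster. Other genes also differed there: the neutrophil list stood at 42368 CPM in implanted and 19617 CPM in non-implanted cells and Spp1 at 903 and 153 CPM. Retnla, which led the cluster, had 0 implanted UMIs (up to 49.7 CPM) and 165 non-implanted UMIs (2531 CPM), and the part of these in the Mrc1 value was not tested. In dendritic cell-like cluster 16, Sepp1 had 42 and 124 UMIs (145 and 270 CPM), a ratio of 0.536 (0.369 to 0.767), where 13.1% of 5644 genes were at least 1.5-fold lower. Of the 3 members that reached 20 UMIs there, 2 were at least 1.5-fold lower, Sepp1 and Maf. The sum over the 8 members had a ratio of 0.733 (0.599 to 0.893) in cluster 16. The monocyte-like clusters stood on opposite sides for Mrc1. In cluster 9 it had 10 and 28 UMIs, a ratio of 0.258 (0.112 to 0.547) beside 5.15% of genes lower, and 13 of the 28 UMIs lay in 1 cell, without which the ratio was 0.476 (0.191 to 1.13). In cluster 10 it had 29 UMIs in 14 cells and 10 UMIs in 7 cells, a ratio of 2.93 (1.39 to 6.74) beside 5.86% of genes higher.

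**Figure D2:**
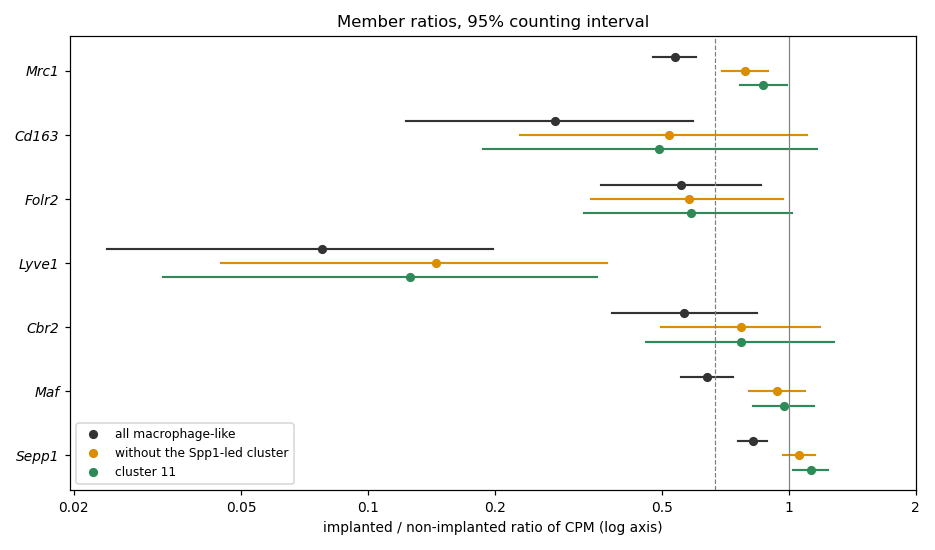
Ratio of implanted to non-implanted CPM (horizontal log axis) for the 7 members with at least 20 UMIs, in all macrophage-like cells (black), without cluster 19 (orange) and in cluster 11 (green); lines are 95% counting intervals, the solid grey line marks equality and the dashed line a 1.5-fold lower level. All 7 black points lie below equality, from 0.0778 to 0.821, while Maf and Sepp1 lie near equality in cluster 11, at 0.973 and 1.13.

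Co-detection was described per cell after each cell had been thinned to 1000 UMIs, so that total depth was the same in every cell. Any RNA of other cells counts within these 1000 UMIs, and its part in the shares was not tested. This kept 171 implanted and 128 non-implanted macrophage-like cells and left out 53 and 35 shallower ones, and each share is the mean of 20 random draws. At least 2 members were found in 28.9% of implanted cells (22.0 to 36.1, from the mean number of cells) and 42.0% of non-implanted cells (33.5 to 51.2). Over the draws the shares ran from 25.1% to 33.3% and from 36.7% to 48.4%. Without thinning the shares were 60.3% and 71.8%, and no cell held more than 7 members.

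By cluster, 45.2% of implanted and 45.8% of non-implanted cells of cluster 11 held at least 2 members. In cluster 14 the shares were 31.1% of 22 cells and 38.0% of 20 cells. The Spp1-led cluster 19 stood lower, with 11.1% of 59 implanted cells, and 58.8% of its cells held none of the members. In cluster 25 the shares were 8.85% of 13 cells and 15.6% of 9 cells. Without cluster 19, the implanted share was 38.2% (33.9% to 42.9% over the draws) and the non-implanted share 42.4% (37.3% to 48.4%), closer than in the whole class. With each library clustered on its own the shares were 27.6% and 28.7%, and in cells with at least 3 C1q UMIs 23.8% and 28.8%, so the difference between the libraries depended on how macrophages were delimited.

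**Figure D3:**
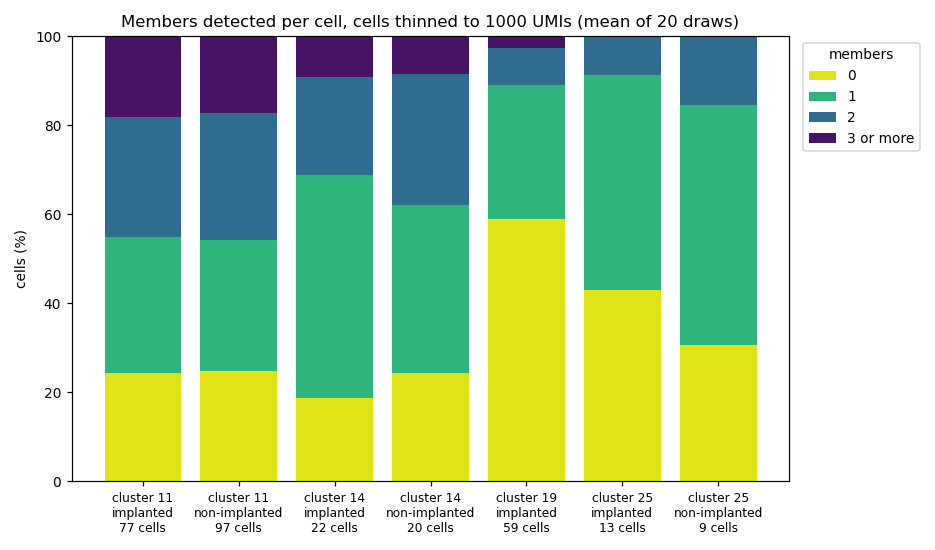
Share of cells (vertical axis, percent) with 0, 1, 2 or at least 3 of the 8 members detected, in each macrophage-like cluster and library, after thinning each cell to 1000 UMIs; bars are means of 20 draws and the number of cells is under each bar. The shares of cluster 11 are close in the libraries, with 45.2% and 45.8% of cells at 2 or more members, and cluster 19 has the tallest share with none, 58.8%.

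In percentage points, detection of single members differed most for Mrc1. In thinned cells Mrc1 was found in 24.5% of implanted and 41.2% of non-implanted macrophage-like cells, against 0.168% and 0.196% of neutrophil-like cells. Maf was found in 25.1% and 32.1%, against 0.405% and 0.374% of neutrophil-like cells. Sepp1 was found in 47.0% and 52.5%, with a neutrophil-like background of 5.32% and 4.56%. Folr2 (2.75% and 2.30%), Cbr2 (3.39% and 3.48%) and Cd163 (1.29% and 1.56%) were near-equal in the libraries on this measure. Lyve1 was found in 0.0877% of implanted macrophage-like cells, below its neutrophil-like share of 0.285%, and in 1.48% of non-implanted ones against 0.212%. In 1 draw Lyve1 had a UMI in 0 of 171 implanted macrophage-like cells, which allows up to 2.13%. At 1000 UMIs its share there could therefore not be told apart from the neutrophil-like share.

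Inside cluster 11 each of the 3 abundant members was found more often in cells that held another of them. In both libraries together and in thinned cells, Maf was found in 42.4% of cells with Mrc1 and 24.7% of cells without it. Sepp1 was found in 66.0% of cells with Mrc1 and 46.3% of cells without it. The remaining pair behaved alike, since Sepp1 was found in 71.3% of cells with Maf and 47.4% of cells without it. Each of these 3 differences had the same direction in 20 of 20 draws. The draws thin the same cells again, so their agreement shows the effect of thinning alone. Without thinning, Maf was found in 114 of 144 cells with Mrc1 (79.2%) and 10 of 31 cells without it (32.3%), and Sepp1 in 135 of 144 (93.8%) and 19 of 31 (61.3%). These shares describe cells of 2 libraries and share depth and any RNA of other cells within a droplet.

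**Figure D4:**
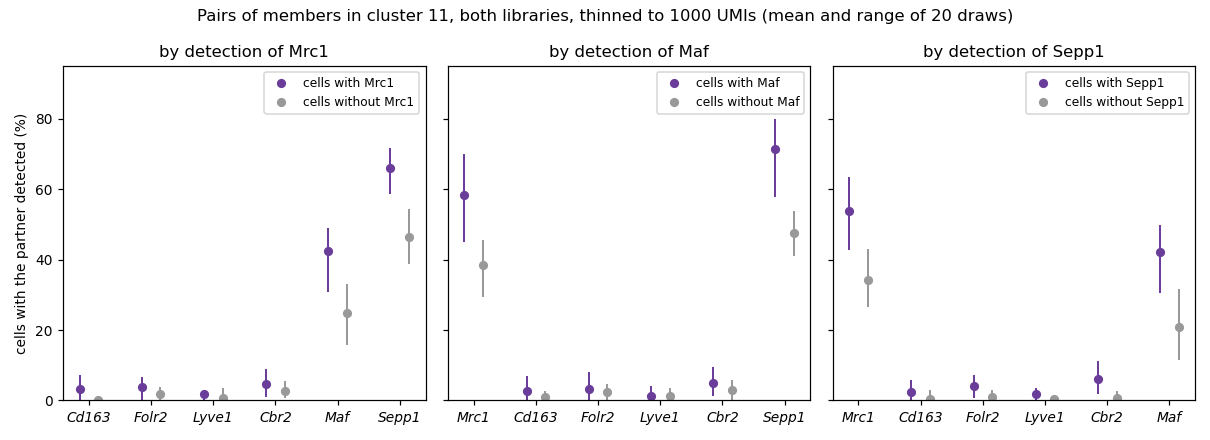
Share of cluster 11 cells (vertical axis, percent) in which each partner gene was detected, among cells with (purple) and without (grey) Mrc1, Maf or Sepp1, both libraries together and thinned to 1000 UMIs; points are means and lines the range of 20 draws, which shows the effect of thinning and not the spread between animals. Maf and Sepp1 are found in 42.4% and 66.0% of cells with Mrc1, above the 24.7% and 46.3% of cells without it.

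The rare members lay mostly in cells that also held abundant ones, but these were deeper cells and were not thinned. The median depth was 5396.5 UMIs in cells with Cd163, 12114 with Lyve1, 8293 with Folr2 and 6570.5 with Cbr2, against 4453 and 4381 in the whole class, where Mrc1 was found in 44.2% and 62.0%, Maf in 54.0% and 58.3% and Sepp1 in 74.6% and 80.4% of cells. Over both libraries and without thinning, Cd163 was found in 16 macrophage-like cells, of which 15 held Mrc1, 16 Maf and 16 Sepp1. These cells were in cluster 11 (12 cells) and cluster 14 (4 cells). The cell with the most Cd163 was non-implanted, with 13890 UMIs, 14 of Cd163, 35 of Mrc1, 21 of Maf and 20 of Sepp1. It also held 20 UMIs of Cd5l, the gene of a secreted macrophage protein, and 8 of Spic, a transcription factor of the macrophages that recycle red cell iron.

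Lyve1 was found in 10 macrophage-like cells, of which 9 held Mrc1, 8 Folr2, 7 Cbr2, 9 Maf and 10 Sepp1. Of these cells 9 were in cluster 11. The cell with the most Lyve1 was non-implanted, with 14231 UMIs, 23 of Lyve1, 51 of Mrc1, 13 of Folr2, 7 of Cbr2 and 38 of Sepp1, and 0.126% of its UMIs in the neutrophil list. Of the 10 cells, 5 had between 16.1% and 38.3% of their UMIs in that list, and the part of that RNA in the Lyve1 values was not tested.

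Folr2 was found in 35 macrophage-like cells: 26 held Mrc1, 27 Maf, 32 Sepp1, 15 Cbr2 and 8 Lyve1. Folr2 reached further than Lyve1 and Cd163, with 17 cells in cluster 11, 6 in cluster 14, 10 in cluster 19 and 2 in cluster 25. Cbr2 was found in 52 cells, of which 40 held Mrc1, 41 Maf and 49 Sepp1. Of the 2 cells with Vsig4, both non-implanted, 2 held Mrc1.

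Cells of cluster 11 with several members also differed in other lists. In 1 draw of thinned cells, the neutrophil list stood at 38000 CPM in 15 implanted and 78368 CPM in 19 non-implanted cells with none of the members, and at 3417 CPM in 12 and 6667 CPM in 15 cells with at least 3. The 7 class II antigen presentation genes stood at 16579 CPM (14799 to 18515) in non-implanted cells with none, 26556 with 1 or 2 and 38267 CPM (35200 to 41529) with at least 3. In implanted cells they had no such order, at 24867 CPM (22407 to 27523), 20500 and 26583 CPM (23746 to 29667), where the intervals of the first and the last overlapped. The 50 companion genes of tissue macrophages, which exclude the members, stood at 10533 and 9579 CPM with none and at 18750 and 19867 CPM with at least 3. A fixed total of 1000 UMIs per cell means that UMIs in 1 list leave fewer for the others, and the part of neutrophil RNA in these differences was not tested.

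The macrophage-like cells were clustered again, as an alternative added after the data had been seen, which gave 9 finer clusters. Finer cluster 7 had 14 implanted and 13 non-implanted cells and was led by Ccr3, Fcna, Cd5l, Vcam1 and Slc40a1. It had Mrc1 at 1694 CPM, Maf at 1072 CPM and Sepp1 at 2920 CPM over both libraries. Some of its leading genes rested partly on single cells: the richest cell of each held 20 of 25 Cd5l, 32 of 66 Fcna and 47 of 123 Slc40a1 UMIs. Cd163 was at 163 CPM (94.8 to 261) in finer cluster 7, from 17 UMIs in 4 cells, 14 of them in 1 cell, and Lyve1 had 0 UMIs. Finer cluster 3, with 21 and 35 cells led by Itm2a, Marco and Flt1, had Lyve1 at 51.6 CPM from 24 UMIs in 2 cells, 23 of them in 1 cell, and Mrc1 at 839 CPM. Its Marco value also rested mainly on 1 cell, which held 22 of 24 UMIs. The highest Cd163 and the highest Lyve1 thus stood in different finer clusters, each resting on few cells.

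Finer cluster 1, of 59 and 52 shallow cells, had Cbr2 at 213 CPM (135 to 319) and Sepp1 at 2440 CPM. Of its 13 non-implanted Cbr2 UMIs, 7 lay in 1 cell. Cluster 19 was divided mainly into finer cluster 5 (28 and 2 cells, led by Vcan and Ccl24) and finer cluster 6 (28 and 0 cells, led by Mmp12, Mfge8 and Spp1). Sepp1 was at 95.4 CPM (49.3 to 167) in the first of these and at 668 CPM in the latter, and Mrc1 at 55.6 and 197 CPM. Cluster 19 was therefore not uniform in the selenium carrier. Its parts also differed in depth, with a median of 3843.5 UMIs in finer cluster 5 and 17158.5 in finer cluster 6. Spp1 was at 5374 CPM in finer cluster 5 but not among its 10 leading genes. Of those, Vcan, Nrg1 and Plcb1 were also leading genes of monocyte-like cluster 9. Finer clusters 4 and 8 were led by neutrophil genes such as Camp and Il1r2. Finer cluster 9, with Tmem119 at 650 CPM, had Mrc1 at 7.06 CPM and Maf at 261 CPM. Finer cluster 2 had Tmem119 at 112 CPM and Mrc1 at 539 CPM.

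**Figure D5:**
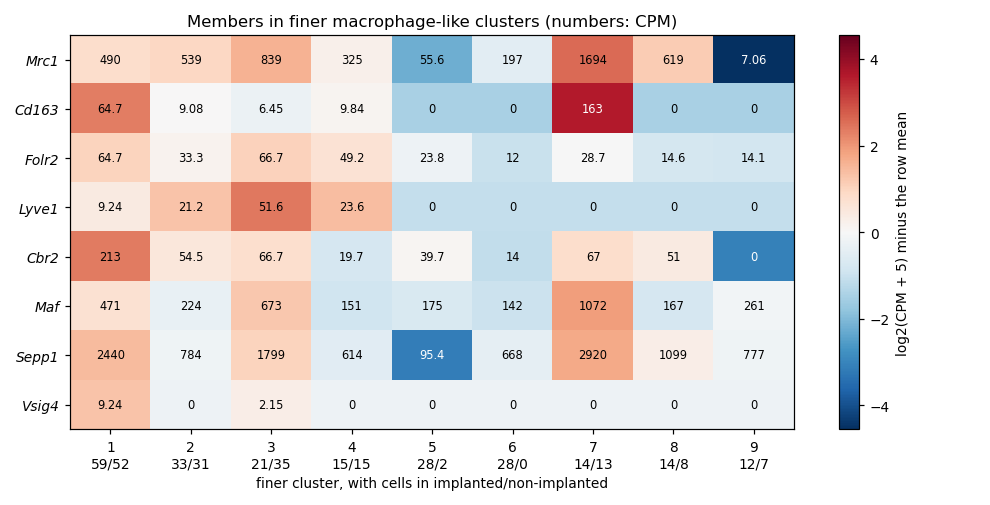
Members (rows) in the 9 finer macrophage-like clusters (columns, with the number of implanted/non-implanted cells below), both libraries summed; the number in each tile is CPM and the colour is log2(CPM + 5) minus the row mean, so colours compare clusters within a gene only. Finer cluster 7 has the highest Mrc1 (1694 CPM), Cd163 (163 CPM), Maf (1072 CPM) and Sepp1 (2920 CPM), and finer cluster 3 the highest Lyve1 (51.6 CPM).

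The list of 50 other genes known from tissue macrophages was less one-sided than the members. In the macrophage-like class 44 reached 20 UMIs, of which 17 were at least 1.5-fold lower and 9 at least 1.5-fold higher in the implanted library. Their median log2 ratio was -0.34, beside -0.01 over all genes, with a range from -2.20 to 1.87. The lowest were the scavenger receptor gene Marco (2 and 22 UMIs, the 22 in 1 cell), the chemokine gene Cxcl12 (9 and 27 UMIs, 16 of the 27 in 1 cell), the lectin genes Clec10a (44 and 65 UMIs) and Mgl2 (40 and 52 UMIs), Cd5l (17 and 25 UMIs, 20 of the 25 in 1 cell) and Spic (59 and 71 UMIs). The highest was the chemokine gene Ccl8, at 407 and 107 CPM, a ratio of 3.79, but 387 of its 612 implanted UMIs lay in 1 cell, without which the ratio was 1.41. Without the richest cell, Cd5l was the higher in the implanted library, with a ratio of 2.03 (0.720 to 7.05). Trem2, a lipid-sensing receptor of macrophages, was at 1010 and 413 CPM, a ratio of 2.45, and Id3, Ccl24, Cd36 and Ninj1 had ratios of 3.34, 3.12, 2.54 and 2.23.

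Without cluster 19, 5 companion genes were lower and 5 higher (8.3% of all genes were higher), with a median of -0.01. In cluster 11, 42 companion genes reached 20 UMIs, of which 3 were lower and 8 higher (9.87% of all genes were higher), with a median of 0.07 beside 0.05 over all genes. All 7 class II genes were at least 1.5-fold lower in the whole class (median -0.98) and 1 of 7 without cluster 19. All 10 genes of the Spp1 list were at least 1.5-fold higher in the whole class, and that list held the leading genes of cluster 19. The neutrophil list moved with the members in that 6 of its 7 genes were at least 1.5-fold lower in the implanted class; its part in the member differences was not tested beyond the values without the cells above 5%.

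The genes with the pattern most like each member over 42 profiles (21 clusters in 2 libraries) are given as a description; the profiles share libraries and depth. Mrc1 was most like Cxcl16 (Pearson r = 0.97), Axl (0.96) and Tmem176a (0.95). Maf was most like Pea15a (0.90), Sepp1 (0.89) and Myof (0.87). Sepp1 was most like Apoe, Trem2 and Cd68, with r from 0.91 to 0.92. Among the rarer members, Folr2 was most like Ltc4s (0.94), Serpinf1 and Cbr2 (both 0.93), and Cbr2 like Ltc4s, Folr2 and Tmem37 (each 0.93). Cd163 was most like Epb41l1 (0.90), Siglech and Ccnd1 (both 0.89). Vsig4 was most like Retnla (0.83), RP24-343P7.1 (0.73) and Gm15164 (0.72). The closest genes of Lyve1, Mlana, Kitl and Ccr3, reached 0.66, 0.64 and 0.63. With another member, Lyve1 and Vsig4 reached at most 0.42 and 0.45, each with Folr2. Between pairs of members r ran from -0.01 for Lyve1 and Vsig4 to 0.93 for Folr2 and Cbr2.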

How the data were processed

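Droplet-based single-cell libraries of CD11b-selected mouse cochlear cells, 1 per group, were used. The deposited matrices hold whole-number UMI counts per gene and barcode. Per the file headers, they come from Cell Ranger 3.0.1. The submitters' processing notes name Cell Ranger, Seurat and mm10 (GRCm38). The annotation release is not given in the sources used here, and a dissection protocol in the labels differs from the series text and is not used. The members and lists were chosen with earlier results of these data known.

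Cells were filtered on 200 genes and 10% mitochondrial UMIs. Scrublet in scanpy 1.11.5 removed the top-scoring cells (0.8% per 1000 barcodes). The counts were normalized, reduced to 2000 variable genes and 30 components, joined in a 15-neighbour graph of shared neighbours and clustered with leidenalg 0.10.2 at resolution 1. Clusters were named from 15 marker lists. The naming score, the rule for leaving clusters unnamed, the mean of 20 draws and the alternatives without cells above 5% neutrophil RNA, at 500 UMIs, without the cell richest in a gene, with finer clusters and with 1 draw were settled after the data had been seen. Named genes were all 8 members, the 3 most like genes of each and 6 companion genes at either end. UMIs were summed per library and cluster. CPM carry exact Poisson, shares Clopper-Pearson and ratios conditional binomial 95% intervals. Log2 ratios use CPM plus 5. Median depth was 4239 UMIs in implanted and 4145 in non-implanted cells. Scripts were tested on simulated counts. Python 3.11.15, numpy 2.4.6, scipy 1.17.1 and pandas 2.3.3 were used.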

Additional observations from a re-analysis of the deposited data

Results flagged for a closer look

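The ratio of implanted to non-implanted Mrc1 took opposite directions in different clusters. It was 2.93 in monocyte-like cluster 10, against 0.258 in monocyte-like cluster 9, 0.395 in macrophage-like cluster 14 and 0.869 in macrophage-like cluster 11. The cluster 9 and cluster 10 values rest on 38 and 39 UMIs. Sepp1 had a ratio of 1.13 in macrophage-like cluster 11 and of 0.536 in dendritic cell-like cluster 16. With 1 library per group these differences between clusters were not tested, and each rests on an interval of counting error that excludes 1. Without the cell richest in the gene, the interval held 1 for Mrc1 in cluster 9 (0.476, 0.191 to 1.13) and for Sepp1 in cluster 11 (1.05, 0.9498 to 1.16).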

How the results depend on the processing

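No paired analysis was possible because each group has 1 library, and for the same reason no library could be left out. The number of members at least 1.5-fold lower in implanted macrophage-like cells, 6 in the values reported, was 3 with no doublets removed, at resolution 0.5 and without the Spp1-led cluster. It was 2 with each library clustered on its own, in cells with at least 3 C1q UMIs, with the mean of per-cell CPM and in cells thinned to 1000 UMIs. The other 8 of 15 alternatives gave between 4 and 6. Apart from the 7.49% of genes lower without the Spp1-led cluster, the share of all genes past the limit was not counted in these alternatives. Whether their counts of members exceed that share was therefore not tested. The ratio of the member sums, 0.682, was 0.777 with no doublets removed, 0.596 with 2 times as many removed, 0.640 at resolution 0.5, 0.941 with separate clustering, 0.746 with no cell filter, 0.868 in C1q cells, 0.923 without the Spp1-led cluster, 0.778 with per-cell CPM and 0.811 in thinned cells. The share of cells with at least 2 members was 13.03% and 20.3% in implanted and non-implanted cells at resolution 0.5, 45.1% and 61.1% at 2000 UMIs, 19.0% and 26.1% at 500 UMIs, 60.3% and 71.8% without thinning and 38.4% and 52.8% at 2 UMIs. It was 38.2% and 42.4% without the Spp1-led cluster, 27.6% and 28.7% with separate clustering and 23.8% and 28.8% in C1q cells. At resolution 0.5 the class shrank to 176 and 90 cells, and with separate clustering the non-implanted class grew from 163 to 256. Folr2 turned direction at resolution 0.5, with a log2 ratio of 0.093. Lyve1 and Cd163 did not reach 20 UMIs at that resolution. They could not be counted there and have 14 alternatives in place of 15. Lyve1 stayed at least 1.5-fold lower in 14 of 14 alternatives, Mrc1 in 12 of 15, Cd163 in 12 of 14, Folr2 and Maf in 8 of 15 and Cbr2 in 6 of 15, while the Sepp1 log2 ratio ran from -0.58 to 0.18. Without the richest cell of each library, 5 members were lower, with log2 ratios of -0.61 for Cd163 and -1.83 for Lyve1, and without the richest cell of both libraries together 3 were, with -0.39 and -1.45. The cause of these changes was not tested.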

Other observations

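Members were also found in small clusters outside the macrophage, dendritic and monocyte classes. Fibroblast-like cells (15 implanted and 10 non-implanted) had Sepp1 at 938 CPM (797 to 1096) and 586 CPM (418 to 797). Osteoclast-like cells had Sepp1 at 25.8 CPM in 12 implanted cells and 175 CPM in 31 non-implanted cells, where 62 of 107 UMIs lay in 1 cell. In the same cells Mrc1 had 0 and 25 UMIs, of which 18 lay in 1 cell. These clusters were too small for a comparison between the libraries.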
